A study of Mus musculus with 10 samples.

Results

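The nuclear receptor genes described here are 39 named members of the nuclear receptor family, among 21887 protein-coding mouse genes that RefSeq annotates on build GRCm38.p6 (mm10). A gene was given every XBP-1 peak whose summit lay from 5 kb before to 5 kb after its span. The genes were chosen as family members, with earlier results of these data known. All 39 were found, and 1319 of the 271621 peaks in the lists of 8 libraries fell in their windows. XBP-1 is a transcription factor that acts when unfolded proteins build up in the endoplasmic reticulum (ER), and Ern1 encodes the ER nuclease whose splicing of Xbp1 mRNA yields the active factor. The series maps its binding in C57BL/6J mouse liver to find targets in liver metabolism.

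The groups were fasted wild-type mice (Fasted), fed wild-type mice (Fed), mice with a liver-specific knockout of Ern1 (Ern1-LKO) and the control mice of that knockout experiment (WT), with 2 libraries each, immunoprecipitated with an antibody against the spliced form, Xbp-1s. The labels give neither the length of the fast, nor the feeding state of the WT and Ern1-LKO mice, nor the Cre line, and they do not say whether replicates were separate animals, so p-values measure only a spread between samples that may be technical. Peak lists hold no RNA, so the liver label was not checked against markers, and binding peaks cannot show the deletion of Ern1. Libraries held 4.34 to 17.4 M kept tags (M is 1e6), and lists held 19237 to 82975 peaks in Fasted and Fed livers and 698 to 30796 in Ern1-LKO and WT livers. Ern1-LKO replicate 1 (698 peaks) and WT replicate 1 (6258 peaks) stood apart from their partners, which had 30796 and 30327 peaks. Fasted and Fed were called by the authors against another input library than Ern1-LKO and WT, and groups are compared only within these pairs.

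Nuclear receptors are transcription factors that bind DNA at a hexamer half-site and, in most cases, change activity when a small lipid-soluble ligand such as a steroid, thyroid hormone, retinoic acid or oxysterol enters their pocket. Many pair with a retinoid X receptor (RXR). In liver they govern bile acid, cholesterol, fatty acid, glucose and drug metabolism. XBP-1 binds elements with an ACGT core, among them the hexamer GACGTG. The peaks below mark DNA near the receptor genes recovered with the Xbp-1s antibody, not binding by the receptors themselves. Peaks were also called without liver Ern1, with 30796 in Ern1-LKO replicate 2 against 30327 in WT replicate 2. Whether every peak is XBP-1 binding was not tested.

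Among the receptor promoters in RefSeq (GRCm38.p6, 250 bases before to 50 after a listed start site), GACGTG on either strand occurred in 4 of 55, which is 7.27%, against 7.17% of 21263 promoters of all genes. The matches lie at Rxrb, Nr4a3, Ppard and Rora. They are shown in capitals because the position of the peak summits relative to them differs between the genes, on the strand of the gene, at chr17:34031566-34031605 (+), chr4:48045142-48045181 (+), chr17:28232524-28232563 (+) and chr9:68653582-68653621 (+).
Rxrb: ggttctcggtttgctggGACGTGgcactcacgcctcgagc
Nr4a3: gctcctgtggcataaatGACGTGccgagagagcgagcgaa
Ppard: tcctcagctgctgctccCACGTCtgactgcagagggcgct
Rora: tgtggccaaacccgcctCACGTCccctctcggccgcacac
The matches in Ppard and Rora read GACGTG on the opposite strand. CCACGT, which overlaps GACGTG in Rxrb and Ppard, occurred in 3 of the 55 receptor promoters (5.45%, against 9.06% of all promoters), at Rxrb, Ppard and Thrb. The cyclic AMP response element TGACGTCA occurred in 2 (3.64%, against 2.23%), at Nr2e1 and Nr6a1. The ER stress elements ERSE and ERSE-II occurred in 0 (0.141% and 0.0517% of all promoters), and the receptor half-site AGGTCA in 8 (14.5%, against 14.7%). Both strands were searched, a match is a description of letters and not of a bound site, and 4 of the 39 genes (Hnf4g, Nr3c1, Nr5a1 and Thra) had no listed promoter.

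The promoters of Rxrb at chr17:34031562-34031861 (+) and Nr2f6 at chr8:71381903-71382202 (−) are shown whole because these are the start sites with a peak region in all 8 libraries. Capitals mark GACGTG joined with the overlapping CCACGT match on the other strand.
Rxrb: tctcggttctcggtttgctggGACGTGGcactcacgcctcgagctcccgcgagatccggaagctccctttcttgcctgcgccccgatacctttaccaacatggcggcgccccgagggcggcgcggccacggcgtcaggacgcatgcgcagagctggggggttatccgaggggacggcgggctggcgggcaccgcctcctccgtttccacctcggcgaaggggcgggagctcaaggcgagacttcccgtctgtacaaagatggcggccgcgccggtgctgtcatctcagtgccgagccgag
Nr2f6: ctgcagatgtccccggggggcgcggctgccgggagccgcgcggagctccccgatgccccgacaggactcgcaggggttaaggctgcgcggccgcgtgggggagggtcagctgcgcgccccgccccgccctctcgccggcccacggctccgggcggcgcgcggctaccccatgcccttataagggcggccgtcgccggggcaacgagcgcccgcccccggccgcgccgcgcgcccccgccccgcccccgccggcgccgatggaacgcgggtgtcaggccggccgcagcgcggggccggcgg

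Most nuclear receptor genes carried a peak in every long list and few did in the shortest. A peak was present at 38 and 28 of the 39 genes in the Fasted libraries (73.1% and 43.6% of all genes) and at 38 and 37 in the Fed libraries (76.1% and 71.2% of all genes). In the knockout experiment it was present at 5 and 34 in the Ern1-LKO libraries (3.58% and 62.4% of all genes) and at 15 and 35 in the WT libraries (19.6% and 65.0% of all genes). The count averaged 33.0 ± 7.1 in Fasted and 37.5 ± 0.7 in Fed livers (SD, n = 2 each), a difference of −4.5 genes (two-sided exact permutation test, p = 1). It averaged 19.5 ± 20.5 in Ern1-LKO and 25.0 ± 14.1 in WT livers, a difference of −5.5 genes (two-sided exact permutation test with n = 2 each, p = 0.67). Both differences lay within the spread between replicates, and 0.33 is the smallest p that these group sizes allow. Both replicates had a peak at 28 genes in Fasted (43.2% of all genes), 36 in Fed (68.8%), 5 in Ern1-LKO (3.54%) and 15 in WT livers (18.3%), and no receptor gene lacked a peak in every library, against 19.4% of all genes. Without Fasted replicate 2 the first difference was 0.5, and without Ern1-LKO replicate 1 or WT replicate 2 the second was 9.0 or 4.5, so its sign rests on single libraries.

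The receptor genes are long, with a median span of 47.1 kb against 17.2 kb for all genes, and longer windows hold more peaks. Of the 10 receptor genes under 20 kb, 9 and 7 had a peak in the Fasted libraries (61.2% and 28.0% of all genes of that length) and 10 and 9 in the Fed libraries (65.2% and 58.8%). The same genes had a peak in 2 and 8 cases in Ern1-LKO livers (2.34% and 49.9%) and in 3 and 9 in WT livers (13.3% and 53.6%). Of the 12 genes over 100 kb, 12 and 9 had a peak in Fasted livers (95.8% and 81.8%) and 11 and 12 in Fed livers (94.5% and 95.5%). In Ern1-LKO livers 0 and 11 of these 12 had a peak (5.15% and 88.5%), and in WT livers 7 and 10 (31.4% and 86.6%). For these 12 genes the receptor share lay near that of all genes of that length in the long lists. In WT replicate 1 it lay above, and in Ern1-LKO replicate 1, with 0 of 12, it lay below. Of the 17 genes of 20 to 100 kb, 17 and 12 had a peak in Fasted livers (84.3% and 55.5%). In Fed livers 17 and 16 did (87.2% and 82.7%). In Ern1-LKO livers 3 and 15 did (5.02% and 73.6%), and in WT livers 5 and 16 (25.7% and 75.9%). In this class and under 20 kb the receptor share lay above that of all genes of like length in every library. The part of gene length in these shares was not tested. A window at start sites does not grow with the span of the gene, although a gene with several listed start sites has several such windows (55 for 35 receptor genes, 21263 for 17492 genes in all). Of the 35 receptor genes with a listed start site, 29 and 16 had a peak within 1 kb of it in Fasted livers (59.2% and 27% of all genes) and 30 and 26 in Fed livers (63.9% and 57.0%). In Ern1-LKO livers 2 and 27 did (2.83% and 48.5%), and in WT livers 9 and 26 did (12% and 53.4%). In all 8 libraries 2 of the 35 did, Nr2f6 and Rxrb (1.87% of all genes).

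**Figure D1:**
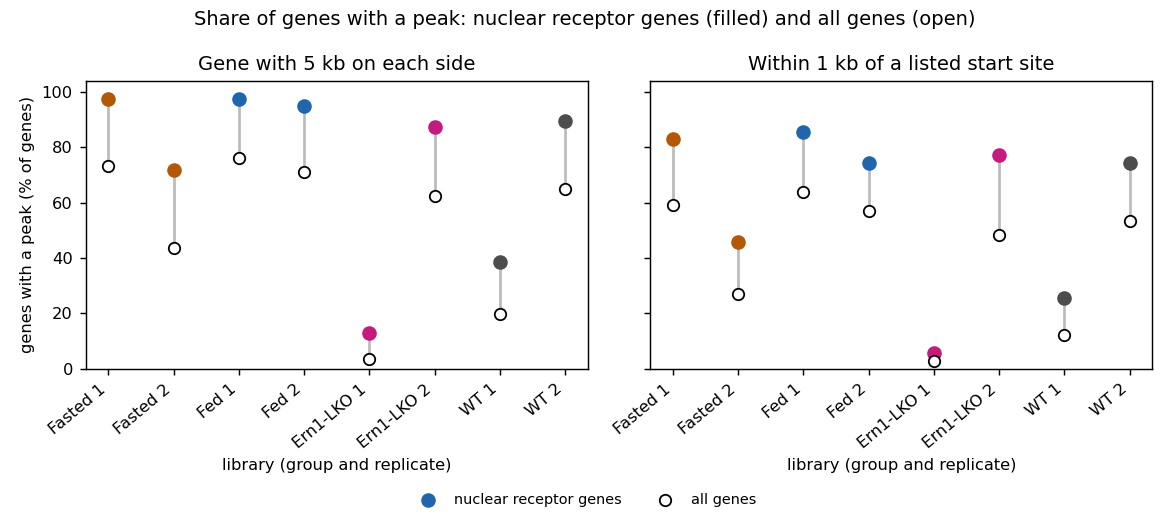
Share of genes with a peak (%) in each of the 8 libraries, for the nuclear receptor genes (filled points) and all genes (open points), within the gene and 5 kb on each side (left, 39 receptor genes) and within 1 kb of a listed start site (right, 35 receptor genes). The filled point lies above the open one in every library, and both drop to their lowest in Ern1-LKO replicate 1.

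Peaks at receptor genes were recovered unevenly between replicates. In Fasted livers, 28.6% of the 234 peaks of replicate 1 overlapped a peak of replicate 2, and 85.5% of the 83 peaks of replicate 2 overlapped one of replicate 1. In Fed livers the shares were 37.7% of 409 and 71.9% of 221. In Ern1-LKO livers all 5 peaks of replicate 1 overlapped replicate 2, against 2.99% of the 167 in the other direction. In WT livers only 39.5% of the 38 peaks of the shorter list, replicate 1, overlapped replicate 2, and 9.26% of 162 did in the other direction.

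**Figure D2:**
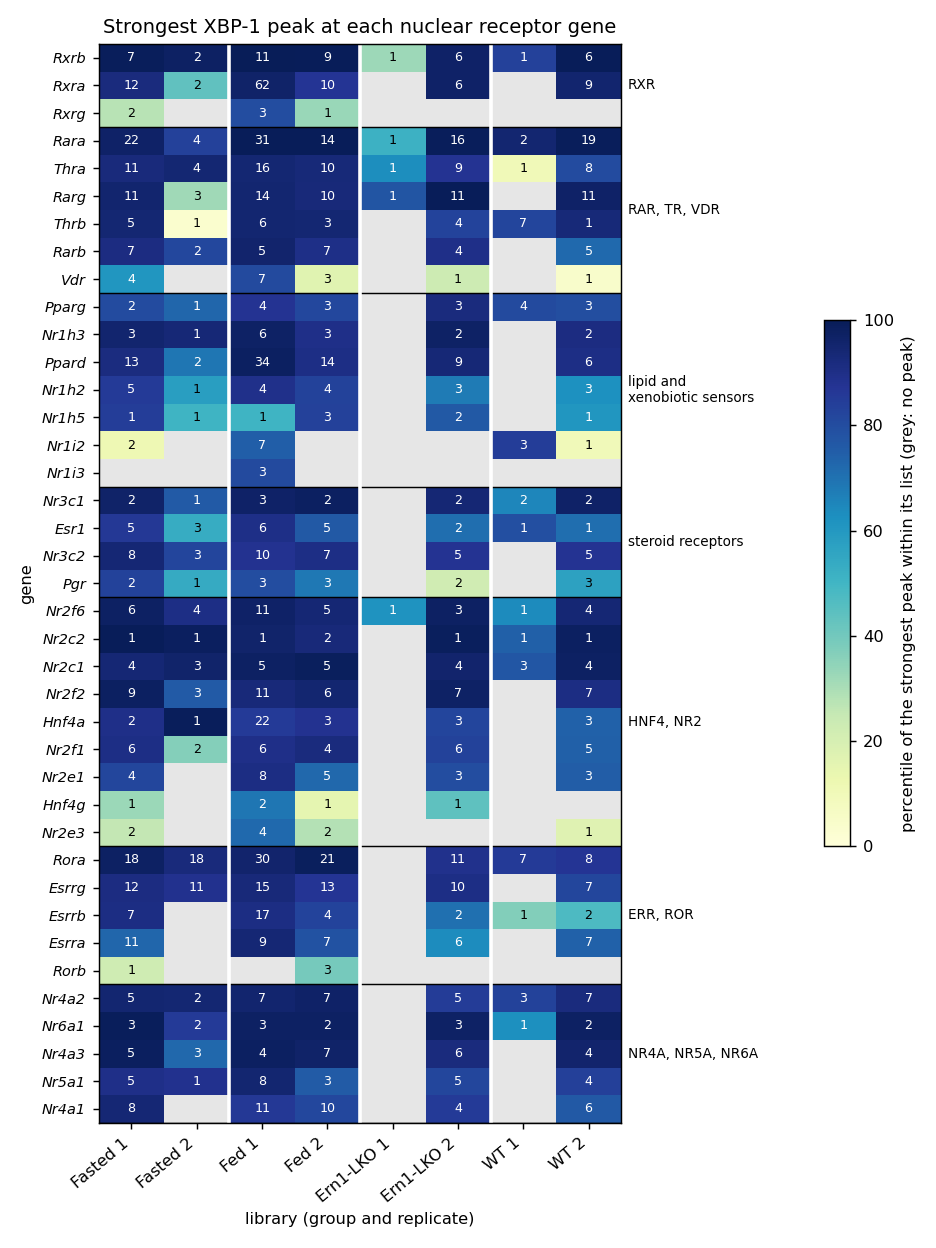
Strongest peak at each of the 39 nuclear receptor genes (rows, grouped by receptor class) in each library (columns). Colour gives the percentile of that peak within its own list by −log10 q (100 is the strongest), the number printed is the count of peaks, and grey is no peak. The Ern1-LKO replicate 1 column holds 5 coloured cells, and Rxrb, Rara, Thra and Nr2f6 are coloured in all 8.

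Among the RXR genes, whose products are the shared partners of many other receptors, Rxrb was marked in every library and Rxrg in 3. Rxrb had 7 and 2 peaks in Fasted livers, 11 and 9 in Fed livers, 1 and 6 in Ern1-LKO livers and 1 and 6 in WT livers. Its strongest peak, by the authors' own values, had a fold enrichment over local background of 19.47 and 11.62 in Fasted, 20.91 and 17.29 in Fed, 4.47 and 17.33 in Ern1-LKO and 5.36 and 22.83 in WT livers. Within its own list this peak stood at percentile 99.1 and 97.4 in Fasted, 99.8 and 99.4 in Fed, 32.4 and 96.7 in Ern1-LKO and 83.5 and 99.3 in WT livers. In 6 of 8 libraries it was therefore among the strongest peaks of the list, and in Ern1-LKO replicate 1 it was in the lower part.

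The Rxrb start region (chr17:34030565-34032637, mm10) is 1 of only 2 receptor regions called in all 8 libraries, out of 536 regions at receptor genes (0.373%, against 0.465% of 86493 regions in gene windows). It is shared with a neighbour: the strongest summit lay at −224 bases from the Rxrb start site and 102 bases from a start site of Slc39a7, which encodes a zinc transporter of the early secretory pathway. A peak list has no strand, so the peak cannot be given to either gene.

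Where the summit fell in that region differed between the groups. The distance from the centre of the GACGTG match to the summit of the strongest peak within 1 kb was 586.5 and 642.5 bases in Fasted livers, against 2.5 and 26.5 bases in Fed livers. It was 375.5 and 574.5 bases in Ern1-LKO livers, against 42.5 and 34.5 bases in WT livers. The Fed and WT summits thus lay on or next to the match, the Fasted and Ern1-LKO summits lay downstream, beyond the first listed Rxrb start site, and the groups did not overlap in either comparison. Another listed Rxrb start site lies farther downstream. The Fasted summits stood at −178 and −122 bases from that site, and the Ern1-LKO replicate 2 summit at −190 bases. The Ern1-LKO replicate 1 summit lay 149 bases after the first listed start site. The mean distance was 614.5 ± 39.6 bases in Fasted and 14.5 ± 17 bases in Fed livers, a difference of 600.0 bases, and 475.0 ± 141 bases in Ern1-LKO and 38.5 ± 5.66 bases in WT livers, a difference of 436.5 bases (SD, n = 2 each; two-sided exact permutation test, p = 0.33 for each, the smallest these designs can give). In Fasted replicate 2 and Ern1-LKO replicate 1 the peak did not reach the match at all.

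This pattern was chosen after its values were seen, and its direction was not particular to Rxrb. Among 543 promoters of all genes (some of them start sites of the same gene) with a GACGTG match and a summit within 1 kb of it in all 4 libraries, both Fasted summits lay farther from the match than both Fed summits at 151 (27.8%) and nearer at 75 (13.8%). For Ern1-LKO against WT, 75 promoters had such summits in all 4 libraries, and the Ern1-LKO summits lay farther at 26 (34.7%) and nearer at 8 (10.7%). The farther direction held in both comparisons together at 15 of 75 (20%), Rxrb among them. The shifts differed in size. At G3bp2, for example, the distances were 14.5 and 10.5 bases in Fasted against 3.5 and 4.5 in Fed livers. A gap of at least 100 bases, as at Rxrb, was found at 46 of 543 (8.47%) for Fasted against Fed and at 3 of 75 (4.0%) for Ern1-LKO against WT. The part that list length, depth or enrichment may have in these distances was not tested.

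At the other receptor promoters with GACGTG the summits stood off from the match in every library that had one. At Nr4a3 the distances were 212.5 and 205.5 bases in Fasted, 191.5 and 245.5 in Fed, 393.5 in Ern1-LKO replicate 2 and 235.5 in WT replicate 2. At Ppard they were 328.5 and 428.5 bases in Fasted, 388.5 and 408.5 in Fed, 374.5 in Ern1-LKO replicate 2 and 344.5 in WT replicate 2. At Rora they were 349.5 and 341.5 bases in Fasted, 321.5 and 350.5 in Fed, 292.5 in Ern1-LKO replicate 2 and 344.5 in WT replicate 2. None of these genes had a summit within 1 kb of the match in Ern1-LKO replicate 1 or WT replicate 1, and the Fasted and Fed distances overlapped at each.

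Across promoters of all genes, GACGTG was more frequent where more libraries had a summit in the promoter window. It occurred in 5.22% of 14333 promoters with a summit in 0 libraries, 10.2% of 6548 with 1 to 5, 23.7% of 329 with 6 or 7 and 52.8% of 53 with 8. The receptor promoters fell in these classes much as all promoters did, with 54 of 55 in the first and second together (98.2%, against 98.2% of all promoters). GACGTG occurred in 3 of 30 in the first, 1 of 24 in the second and 0 of 1 in the third. With 4 matches, the receptor promoters cannot show whether they follow the order. Only summits inside the promoter window were counted. Nr4a3, Ppard and Rora had none there, although each had a peak within 1 kb of a listed start site in 6 libraries. These are descriptions, given without a test.

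**Figure D3:**
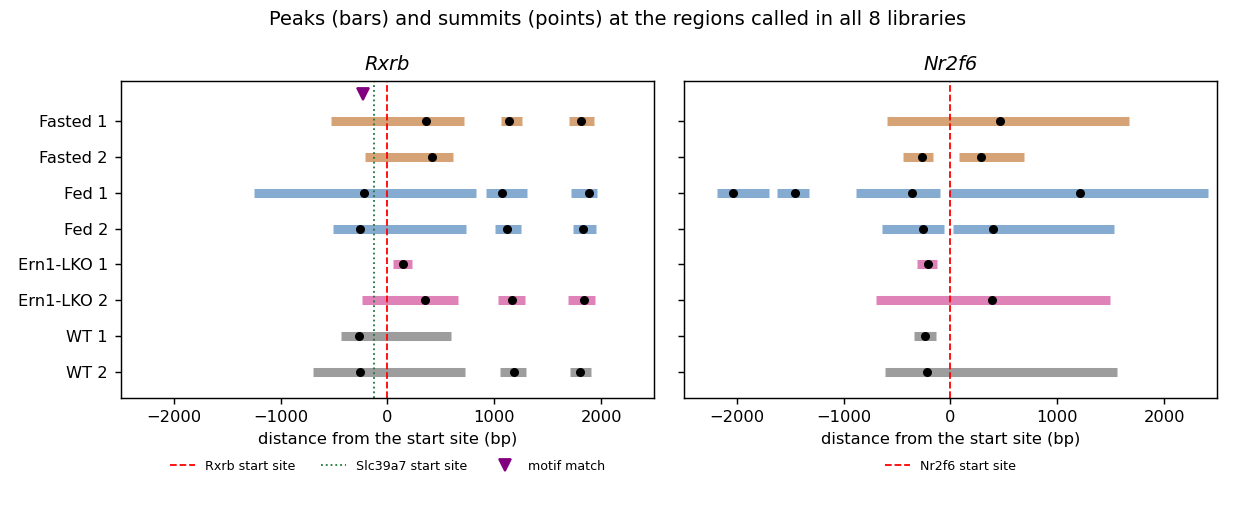
Peaks (bars) and their summits (points) in each library within 2.5 kb of the start sites of Rxrb (left) and Nr2f6 (right), by distance from the start site in bases, in the direction of transcription. At Rxrb the summits of the strongest Fed and WT peaks lie next to the motif match (triangle). Those of the strongest Fasted and Ern1-LKO peaks lie beyond the first listed start site. Weaker peaks farther downstream are also drawn. Another listed Rxrb start site, farther downstream, is not drawn. At Nr2f6 summits lie on both sides of the start site.

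Rxra, the main RXR of liver, showed the highest density of peaks of all long genes in 1 library. It had 12 and 2 peaks in Fasted livers, 62 and 10 in Fed livers, 0 and 6 in Ern1-LKO livers and 0 and 9 in WT livers. In Fed replicate 1 this came to 64.0 peaks per 100 kb, rank 1 among 6007 genes with a window of at least 50 kb, where the median was 3.34. It also stood above the median of these genes in the other long lists, with 12.4 peaks per 100 kb in Fasted replicate 1 (rank 228, median 2.21), 10.3 in Fed replicate 2 (rank 199, median 2.06), 6.19 in Ern1-LKO replicate 2 (rank 276, median 1.46) and 9.29 in WT replicate 2 (rank 148, median 1.45). Of the 62 peaks, 8 overlapped a peak of Fed replicate 2, 12 overlapped a peak of any other library and 50 overlapped none. They were weak by the authors' values, with a median fold enrichment of 3.65 against 4.15 for the whole list, and covered 25.3 kb.

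Ppard and Hnf4a also had their most peaks in Fed replicate 1, but differed in the other lists. Ppard, a fatty acid receptor, had 13 and 2 peaks in Fasted, 34 and 14 in Fed, 0 and 9 in Ern1-LKO and 0 and 6 in WT livers, and 20 of the 34 overlapped no other library. Its density ranked 126 in Fasted replicate 1, 19 and 48 in Fed, 76 in Ern1-LKO replicate 2 and 221 in WT replicate 2. Hnf4a, a factor central to hepatocyte identity, had 2 and 1 in Fasted, 22 and 3 in Fed, 0 and 3 in Ern1-LKO and 0 and 3 in WT livers, and 18 of the 22 overlapped no other library. Its density ranked 2623 in Fasted replicate 1, 105 and 1364 in Fed, 703 in Ern1-LKO replicate 2 and 741 in WT replicate 2. Of the 39 receptor genes, 25 had more peaks in Fed replicate 1, the longest list, than in any other library. The share among all genes was lower, at 40.7%. All genes have a shorter median span, and genes of like length were not compared. These counts are therefore given per library and not as a difference between Fasted and Fed.

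The strongest Hnf4a peak lay far from its start sites. A region at chr2:163577133-163577654, beyond the end of the gene and 30268 bases downstream of the nearest listed Hnf4a start site, was called in 6 libraries. Its fold enrichment was 12.85 and 15.4 in Fasted, 5.8 and 10.91 in Fed, 12.23 in Ern1-LKO replicate 2 and 8.93 in WT replicate 2. In Fasted replicate 2 it stood at percentile 99.0. Hnf4g, the related receptor of gut and pancreas, had 1 and 0 peaks in Fasted, 2 and 1 in Fed, 0 and 1 in Ern1-LKO and 0 and 0 in WT livers.

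**Figure D4:**
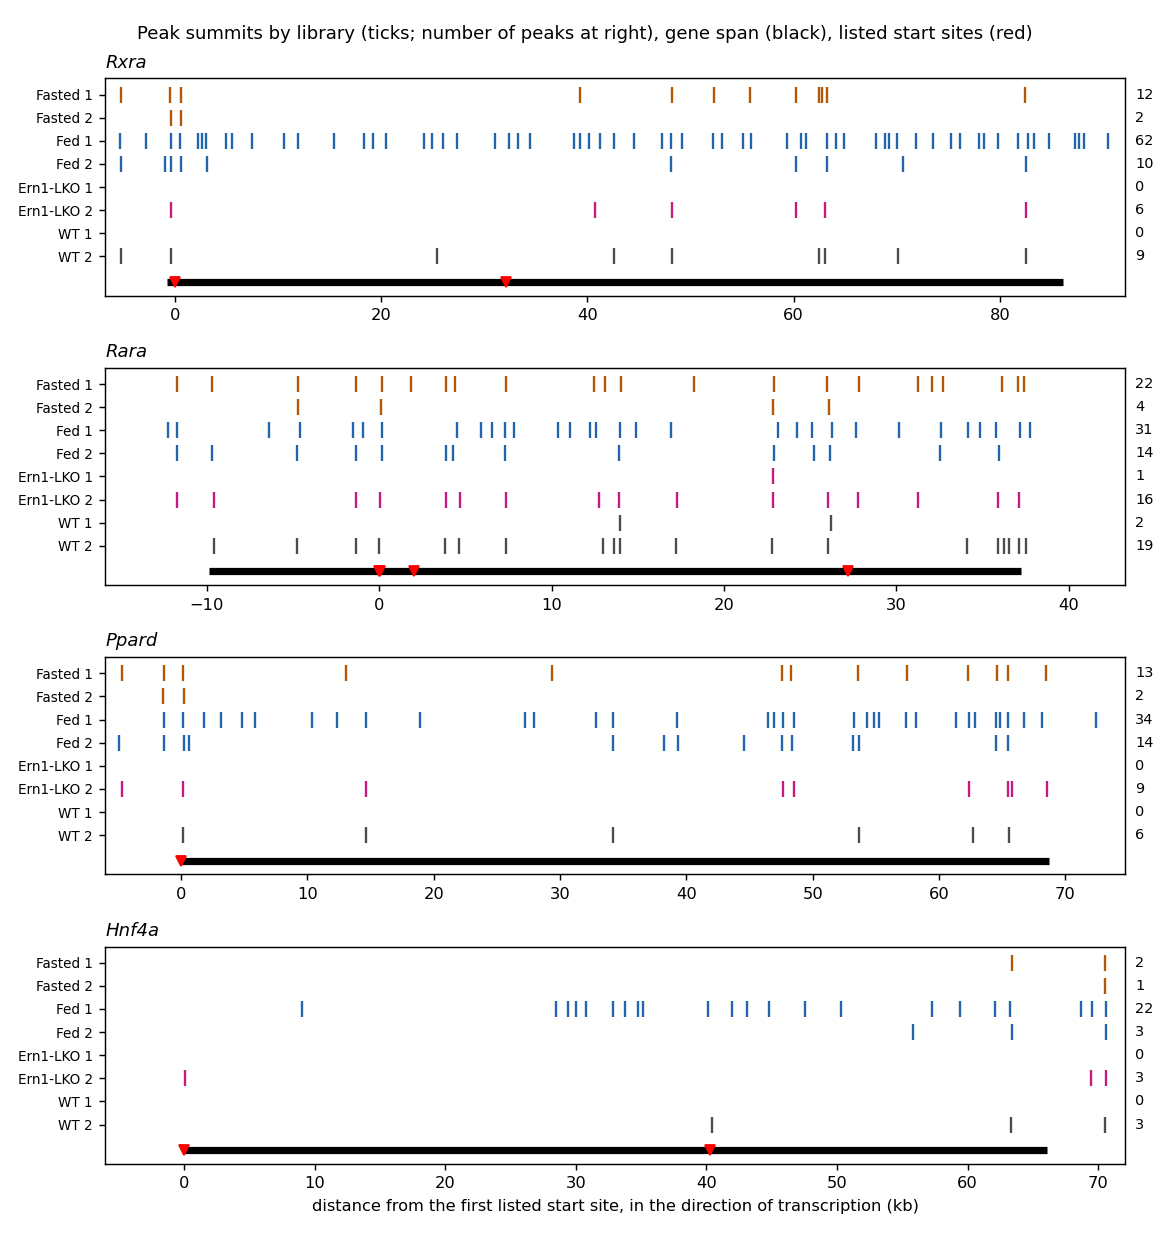
Peak summits (ticks) in each library along Rxra, Rara, Ppard and Hnf4a, by distance from the first listed start site in kb, in the direction of transcription. Black bars are gene spans, red triangles are listed start sites and the number at the right is the count of peaks. Fed replicate 1 has 62 ticks across Rxra, 34 across Ppard and 22 across Hnf4a, more than any other library.

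The receptors for retinoic acid, thyroid hormone and vitamin D included 2 of the 4 receptor genes marked in all 8 libraries (4 of 39, which is 10.3%, against 2.64% of all genes). Rara had 22 and 4 peaks in Fasted, 31 and 14 in Fed, 1 and 16 in Ern1-LKO and 2 and 19 in WT livers. Among the 6007 genes with long windows its density ranked 5 and 22 in Fasted, 3 and 13 in Fed, 49 and 4 in Ern1-LKO and 128 and 2 in WT livers. Of its 31 Fed replicate 1 peaks, 19 overlapped another library.

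No single Rara region was called in all 8 libraries. A start-site region (chr11:98937222-98938502) was called in 6, with a summit at −2 bases from the start and a fold enrichment of 18.48 and 6.42 in Fasted, 10.74 and 13.68 in Fed, 21.26 in Ern1-LKO replicate 2 and 12.45 in WT replicate 2. An intragenic region (chr11:98951148-98952016), 11947 bases downstream of a listed start, had 8.93 in Fasted replicate 1, 12.22 and 16.83 in Fed, 10.87 in Ern1-LKO replicate 2 and 12.11 and 24.61 in WT livers. No peak was called there in Fasted replicate 2 or Ern1-LKO replicate 1. In both Fed libraries and both WT libraries this region held the strongest peak of the gene, with percentiles of 99.6 and 99.4 in Fed and 94.9 and 98.9 in WT livers.

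Thra had 11 and 4 peaks in Fasted, 16 and 10 in Fed, 1 and 9 in Ern1-LKO and 1 and 8 in WT livers. Its single Ern1-LKO replicate 1 peak lay in a region near one end of the gene (chr11:98741499-98742641) that 7 libraries shared. The single WT replicate 1 peak lay outside the gene span, 1521 bases from a start site of the neighbour Nr1d1. It was weak, with a fold enrichment of 3.3 and percentile 10.4 of its list. Rarg, the fifth receptor gene in the Ern1-LKO replicate 1 list, had 11 and 3 peaks in Fasted, 14 and 10 in Fed, 1 and 11 in Ern1-LKO and 0 and 11 in WT livers. Thrb, the main thyroid hormone receptor of liver, had 5 and 1 in Fasted, 6 and 3 in Fed, 0 and 4 in Ern1-LKO and 7 and 1 in WT livers. Its start region (chr14:17659774-17661581) was called in 7 libraries. Rarb and Vdr had a peak in 6 and 5 libraries.

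The sensors of lipids and foreign compounds ranged from 7 libraries (Pparg) to 1 (Nr1i3). Pparg, the receptor of fat storage, had 2 and 1 peaks in Fasted, 4 and 3 in Fed, 0 and 3 in Ern1-LKO and 4 and 3 in WT livers. A start region (chr6:115360742-115361430) was called in the 6 libraries other than Ern1-LKO replicate 1 and WT replicate 1, and the strongest WT replicate 1 peak lay 43570 bases from a listed start. WT replicate 1 also had summits at −940 and −305 bases from another listed Pparg start site, outside that region. Nr1h3 (LXR alpha, an oxysterol receptor) had 3 and 1 in Fasted, 6 and 3 in Fed, 0 and 2 in Ern1-LKO and 0 and 2 in WT livers.

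The most widely called region at Nr1h3, and likewise at Nr1h5, lay at the start site of a neighbour. The Nr1h3 region called in 6 libraries (chr2:91182394-91183103) was 439 bases from a start site of Madd, a regulator of Rab GTPases, and 12427 bases from that of Nr1h3. Its fold enrichment was 13.68 and 11.72 in Fasted, 6.74 and 10.31 in Fed, 18.58 in Ern1-LKO replicate 2 and 13.33 in WT replicate 2. At its own start site Nr1h3 had a peak in 5 libraries, with lower values such as 6.15 in Fasted replicate 1 and 7.07 in Fed replicate 2. The Nr1h5 region (an orphan relative of the bile acid receptor; chr3:102935197-102936260) was 258 bases from a start site of Sycp1, a meiotic gene, and 28291 bases from its own, and no library had a peak at the Nr1h5 start site. Nr1h2 (LXR beta) had 5 and 1 in Fasted, 4 and 4 in Fed, 0 and 3 in Ern1-LKO and 0 and 3 in WT livers.

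Nr1i2 and Nr1i3 encode PXR and CAR, which sense foreign compounds and induce drug-metabolizing enzymes. Nr1i2 had 2 and 0 peaks in Fasted, 7 and 0 in Fed, 0 and 0 in Ern1-LKO and 3 and 1 in WT livers. It was the only receptor gene that was marked in the whole of 1 group and in no library of the group it is compared with: 1 of 39 for WT only (0.896% of all genes), against 0 for Ern1-LKO only (0.0%), 0 for Fasted only (0.0731%) and 0 for Fed only (1.2%). The WT peaks did not coincide, since the replicate 1 summits lay 14947, 8755 and 5691 bases and the replicate 2 summit 11672 bases from the nearest listed start. The replicate 2 peak stood at percentile 9.9 of its list. Nr1i3 had 3 peaks in Fed replicate 1 and 0 in each other library.

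Of the steroid receptors, Nr3c1, the glucocorticoid receptor, had 2 and 1 peaks in Fasted, 3 and 2 in Fed, 0 and 2 in Ern1-LKO and 2 and 2 in WT livers. Its main region (chr18:39488775-39490780) was called in 7 libraries, with 17.06 and 8.42 fold enrichment in Fasted, 7.46 and 11.05 in Fed, 14.44 in Ern1-LKO replicate 2 and 3.88 and 15.76 in WT livers. Esr1, the estrogen receptor alpha gene, had 5 and 3 in Fasted, 6 and 5 in Fed, 0 and 2 in Ern1-LKO and 1 and 1 in WT livers, and only 1 library had a peak at a listed start site. Its most widely called region lay 2655 bases downstream of the start. Nr3c2 (mineralocorticoid receptor) and Pgr (progesterone receptor) had a peak in 6 libraries.

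Among the orphan receptors of the NR2 class, Nr2f6 was the other gene with a region in all 8 libraries (chr8:71379539-71382840). The highest fold enrichment in it was 14.58 and 9.06 in Fasted, 8.43 and 9.36 in Fed, 5.89 and 19.01 in Ern1-LKO and 5.9 and 13.5 in WT livers. Nr2f6 had 6 and 4 peaks in Fasted, 11 and 5 in Fed, 1 and 3 in Ern1-LKO and 1 and 4 in WT livers. Nr2c2 carried a single peak in most libraries, at the start site, in the 7 libraries other than Ern1-LKO replicate 1. Its strongest peak stood at percentile 99.6 and 98.3 in Fasted, 96.0 and 92.7 in Fed, 98.8 in Ern1-LKO replicate 2 and 74.3 and 97.9 in WT livers. Nr2c1 had a peak in the same 7 libraries, Nr2f1 and Nr2f2 in 6, Nr2e1 in 5 and Nr2e3, a photoreceptor factor, in 4.

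Rora, which acts on the clock and on lipid metabolism, had 18 and 18 peaks in Fasted, 30 and 21 in Fed, 0 and 11 in Ern1-LKO and 7 and 8 in WT livers. It is the longest receptor gene, at 735.0 kb, and its regions were spread along it: 1 called in 7 libraries lay 636091 bases from the nearest listed Rora start, and others in 6 libraries lay 165 and 604567 bases from it. Rora also held the only receptor region that both WT lists and no Ern1-LKO list contained, with a fold enrichment of 6.83 and 9.93 in WT livers. Esrrg and Esrrb had a peak in 6 libraries, Esrra, a regulator of mitochondrial genes, in 5, and Rorb in 2.

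The NR4A genes, which are induced rapidly by many stimuli, had a peak in 7 libraries for Nr4a2, 6 for Nr4a3 and 5 for Nr4a1. Nr4a2 had a start region (chr2:57123389-57124440) with a summit 77 bases after the start and a fold enrichment of 14.71 and 11.9 in Fasted, 7.96 and 13.48 in Fed, 11.64 in Ern1-LKO replicate 2 and 6.99 and 12.53 in WT livers. Nr6a1, the germ cell nuclear factor, had a peak in 7 libraries and Nr5a1, a factor of adrenal and gonad, in 6.

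Counted by region instead of by gene, 43 regions at 25 receptor genes were called in at least 6 libraries (8.02% of 536, against 8.8% in gene windows), and 14 in at least 7 (2.61%, against 2.13%). Of the 39 such regions whose gene had a listed start site, 18, at 16 genes, had the strongest summit within 1 kb of it, and 14 lay nearer to a start site of another gene, 8 of them within 1 kb of it. In Fasted and Fed livers, 56 of 497 receptor regions were called in all 4 libraries (11.3%, against 10.9%), 1 only in the Fasted pair (0.201%, against 0.429%) and 14 only in the Fed pair (2.82%, against 2.43%). The Fasted-only region lay within Esrrg. The Fed-only regions lay at 11 genes: Esrrb, Esrrg, Nr1h3, Nr2e1, Nr2e3, Nr2f2, Nr4a1, Ppard, Rara, Rxra and Rxrb. In Ern1-LKO and WT livers, 2 of 228 regions were called in all 4 (0.877%, against 1.22%), 0 only in the Ern1-LKO pair (0.0%) and 1 only in the WT pair (0.439%, against 0.535%). The shares of receptor regions in all 4 libraries and in the Fed pair alone were near those of regions in gene windows as a whole, and the other classes held 0 to 2 regions.

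Since list lengths differ, the same number of top peaks was also taken from each list. Among the top 698 peaks, 3 and 3 receptor genes were marked in Fasted, 2 and 4 in Fed, 5 and 3 in Ern1-LKO and 1 and 3 in WT livers, against 2.93% to 4.01% of all genes. Rara was among them in both Fed, both Ern1-LKO and both WT libraries, and Rxrb in both Fasted, both Fed and 1 of 2 libraries of each of the other groups. Among the top 19237 peaks, 32 and 28 were marked in Fasted (57.4% and 43.6% of all genes) and 34 and 32 in Fed livers (58.6% and 56.7%).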

How the data were processed

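XBP-1 peak lists of mouse liver were used as deposited by the authors: 8 lists for single libraries and, as an alternative, 4 lists of pooled groups. Per the submitters' processing notes, Bowtie2 2.2.5 and MACS2 2.2.1 were used on mm10. Per the file headers, the version was MACS 2.1.1.20160309, with 1 tag kept per position and a q cutoff of 0.05. Each list gives, per the file headers, the pileup signal, the fold enrichment (a ratio to local background) and the −log10 of both p-values and q-values, all the authors' own. They were used only to rank or describe peaks within a list; pileup was not used. Fasted and Fed lists were called against an input with 39.67 M kept tags, Ern1-LKO and WT lists against another with 16.51 M.

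Summits were assigned to gene spans with 5 kb on each side in Python 3.11.15 with pandas 2.3.3. Start sites and promoter sequences came from RefSeq (35 of 39 receptor genes matched). Peaks of several libraries that overlapped by at least 1 bp were merged into regions. Percentiles follow −log10 q within a list. Exact two-sided permutation tests compared counts and summit distances between libraries. The assignment of peaks to genes was tested on simulated data. No genome sequence was used, so summits outside promoters were not searched for motifs.

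The receptor genes, the lists of coregulators and targets and the named genes were chosen with earlier results of these data known. Named with values were receptor genes with a peak in all 8 libraries or in the whole of 1 group and no library of its counterpart, 14 metabolic and hormone receptors in any case, and coregulators and targets with the same patterns. Rarg, Nr2c2, Nr4a2 and the Rxrb summit distances were singled out after their values were seen. Alternatives were limits of 5 and 10 on −log10 q, a fold of 5, windows of 1 kb, a 50% overlap, equal numbers of top peaks, pooled lists, a replicate block and leaving out each library.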

Additional observations from a re-analysis of the deposited data

How the results depend on the processing

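The difference in receptor genes with a peak depended on single libraries and on list length. Fasted minus Fed (−4.5) ranged from −9.5 to 0.5 when each library was left out, reversing without Fasted replicate 2. Ern1-LKO minus WT (−5.5) ranged from −20.0 to 9.0, reversing without Ern1-LKO replicate 1 (9.0) and without WT replicate 2 (4.5), and was 2.0 with equal numbers of top peaks, both within the comparison and over all 8 libraries. The 4 genes in all 8 libraries became 0 at −log10 q of at least 10, 1 at a fold of at least 5, 2 at gene ends, 2 at start sites, 1 and 0 with equal top peaks within a comparison and over all 8, 4 to 13 with a library left out (13 without Ern1-LKO replicate 1) and 30 in the authors' pooled lists. The WT-only count (1) became 0 at −log10 q of at least 5 and 10, a fold of at least 5, gene ends, start sites and both settings of equal top peaks, and 0 to 11 with a library left out (11 without Ern1-LKO replicate 2, 2 without WT replicate 1). The Ern1-LKO-only count (0) became 1 with equal top peaks in both settings, and 0 to 1 with a library left out. The Fed-only count (0) became 4 in the pooled lists, 1 with equal top peaks over all 8, and 0 to 8 with a library left out (8 without Fasted replicate 1). The Fasted-only count (0) became 1 with equal top peaks over all 8. Genes holding a region called only in the Fed pair are another measure, since such genes can have Fasted peaks elsewhere. They numbered 11 for merged regions and 9 at 50% overlap, against 1 in both settings for the Fasted pair. Fewer peaks or libraries enter most of these settings by construction; other causes were not tested.

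The Rxrb distances kept their direction with each library left out, at 572.0 to 628.0 bases for Fasted minus Fed and 337.0 to 536.0 bases for Ern1-LKO minus WT, and did not change with the nearest summit in place of the strongest peak's. Over genes, 93 of 269 recomputed counts of libraries with a peak moved. Start-site windows, equal top peaks over all 8 libraries and the nearest summit were added after seeing the data.

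The replicate numbers share only a number. Deviations of same-numbered libraries from their group means correlated at 0.27 (Fasted and Fed) and 0.70 (Ern1-LKO and WT) over 21887 genes. With the number as a replicate block, the differences were −4.5 (exact sign-flip test, p = 1) and −5.5 (p = 0.50, the smallest it can give), and no call changed.

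With 2 libraries a group and 698 to 82975 peaks a list, a gene without a peak in a short list was not called there. That is not absence of binding. The shorter list of a pair had more kept tags in Ern1-LKO (12 M against 4.341 M) and WT livers (14.07 M against 9.177 M). It also had more in Fasted livers (9.621 M against 8.378 M), and fewer in Fed livers (7.766 M against 17.4 M). Why list lengths differ was not tested.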

Other observations

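Coregulator genes encode proteins that join nuclear receptors to chromatin. They were listed with Ncoa2 and Pnrc1 known from an earlier account of these data, and were not compared with genes of like length. Of 25 listed coregulators, 9 had a peak in all 8 libraries (36.0%, against 2.64% of all genes): Ncoa2, Ncoa6, Ep300, Crebbp and Ppargc1b, which encode coactivators, Ncor1 and Tbl1xr1, which belong to a corepressor complex, and Pnrc1 and Pias1. A peak was present at 25 and 22 of them in Fasted (73.1% and 43.6% of all genes), 25 and 25 in Fed (76.1% and 71.2%), 10 and 24 in Ern1-LKO (3.58% and 62.4%) and 16 and 24 in WT livers (19.6% and 65.0%). Peaks per 100 kb of their windows numbered 4.72 and 2.07 in Fasted, 6.8 and 4.24 in Fed, 0.351 and 3.16 in Ern1-LKO and 0.734 and 2.94 in WT livers. At the receptor genes they numbered 4.38 and 1.55 in Fasted, 7.67 and 4.13 in Fed, 0.0935 and 3.12 in Ern1-LKO and 0.711 and 3.03 in WT livers. Neither list was higher than the other in all 8 libraries. For all genes they numbered 3.98 and 1.26 in Fasted, 6.12 and 3.44 in Fed, 0.0661 and 2.39 in Ern1-LKO and 0.468 and 2.55 in WT livers. Both lists were higher than all genes in all 8 libraries. The strongest Ncoa2 peak stood at percentile 98.8 and 99.1 in Fasted, 98.9 and 97.9 in Fed, 48.1 and 99.4 in Ern1-LKO and 60.3 and 96.7 in WT livers.

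Of 26 liver genes known as nuclear receptor targets, 0 had a peak in all 8 libraries (2.64% of all genes). A peak was present at 88.5% and 42.3% of them in Fasted (73.1% and 43.6% of all genes), 100% and 69.2% in Fed (76.1% and 71.2%), 3.85% and 61.5% in Ern1-LKO (3.58% and 62.4%) and 53.8% and 65.4% in WT livers (19.6% and 65.0%). In 5 of the 8 libraries the share was thus close to that of all genes. Of the targets, Tat and Pck1 were known from an earlier account of these data. Tat (1 of 26, 0.896% of all genes), a glucocorticoid-induced enzyme of tyrosine breakdown, was the only target marked in the WT pair and in no Ern1-LKO library, with 0 and 0 peaks in Ern1-LKO and 3 and 1 in WT livers, and 1 and 0 in Fasted and 3 and 0 in Fed livers. Of 10 nuclear receptor genes outside the 39, Nr1d2, a clock repressor, had a peak in all 8 libraries, and Nr0b2, a repressor in bile acid control, was marked in the WT pair alone within that comparison.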
